A study of Mus musculus with 75 samples.

Results

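Nuclei labelled by the D2 dopamine receptor gene were compared between mice that met cocaine again after repeated cocaine and mice that only ever had saline. The comparison takes every library whose column in the deposited count table carries the D2 cocaine-cocaine or the D2 saline-saline label: 10 D2_CC and 9 D2_SS libraries, 19 of the 75 in the series. All were from male mice bred from an LSL-eGFP::L10a line, in which Cre switches on a green fluorescent ribosomal protein L10a, and a D2-Cre line, so the labelled nuclei are those of cells in which the D2-Cre transgene acts or has acted. D2_CC mice had cocaine (20 mg/kg, intraperitoneal) daily for 10 days, 30 days of homecage withdrawal and a cocaine challenge. D2_SS mice had saline at both steps. The nucleus accumbens was punched 1 h after the challenge, nuclei were sorted by fluorescence, and total nuclear RNA was sequenced. The groups D2_SC and D2_CS had cocaine at the challenge only or in the repeated phase only, and D1_CC and D1_SS are the same treatments in mice with D1-Cre. The labels do not state whether each library came from a separate animal, so p-values measure the spread between these libraries, which may in part be technical.

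D2 receptor neurons of the accumbens are medium spiny projection neurons of the indirect pathway. They use GABA, and make the adenosine A2a receptor (Adora2a) and proenkephalin (Penk). The D2 receptor couples to Gi, so dopamine lowers cyclic AMP in these cells, whereas it raises cyclic AMP through the D1 receptor in the neighbouring direct-pathway cells. Cocaine blocks the dopamine transporter and raises extracellular dopamine. Within an hour, active striatal neurons transcribe immediate early genes, among them Fos, Fosb, Egr1, Arc and the nuclear receptors Nr4a1 and Nr4a3, many of which are switched on through the cyclic AMP response element (CRE) bound by CREB.

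Promoter sequence of Nr4a3 and Fosb is shown because the results on early genes turn on them. Both lines are in RefSeq coordinates (GRCm38.p6), 5′ to 3′ on the gene's strand, with CRE half-sites (TGACG or its reverse complement CGTCA, searched on both strands in the 250 bases before the start site) in capitals. The Nr4a3 line gives the first 108 of these bases, chr4:48045055-48045162 on the plus strand, and the Fosb line all 250, chr7:19310046-19310295 on the minus strand.
Nr4a3: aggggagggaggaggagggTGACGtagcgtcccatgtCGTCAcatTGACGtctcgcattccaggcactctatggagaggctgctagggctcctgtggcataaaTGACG
Fosb: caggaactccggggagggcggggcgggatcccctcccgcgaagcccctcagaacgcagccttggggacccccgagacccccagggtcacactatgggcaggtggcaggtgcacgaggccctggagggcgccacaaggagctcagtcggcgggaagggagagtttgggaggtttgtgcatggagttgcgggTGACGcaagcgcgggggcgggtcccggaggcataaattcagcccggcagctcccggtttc
Nr4a3 held 4 half-sites, 231, 213, 205 and 147 bases before the RefSeq start site. The GENCODE M21 start of Nr4a3, given below, lies upstream of this one and inside the printed line. By that start the last half-site lies within the gene. Fosb held 1, at 60 bases, and Nr4a1, a close relative of Nr4a3, held 4, at 233, 213, 69 and 40 bases. A half-site stood in this window in 15 of the 22 rapid immediate early genes with a promoter entry (68.2%) and in 17.9% of 27025 promoters of all genes. A match describes the letters and is not a measured binding site.

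Depth was uneven. Total counts ran from 5331227 to 17808952 in D2_SS and from 4541058 to 24325649 in 9 of the D2_CC libraries, while D2_CC 10 held 19825 counts, so that 1 read there equals 50.4 CPM (counts per 1000000 of the library's total). D2_CC 9 and D2_CC 10 failed a quality rule on depth, gene number, receptor ratio and correlation, and no D2_SS library did. All 10 D2_CC libraries entered the fits. Levels below are CPM over the 9 deeper libraries, and D2_CC 10 is named where it bears on a value. The share of counts that reads spread evenly over gene bodies would account for, estimated from olfactory and vomeronasal receptor genes, was 14.7% to 69.8% in the 9 D2_CC libraries (mean 40.2 ± 21.1, SD) and 5.37% to 61.2% in D2_SS (43.9 ± 17.1). The difference of -3.61 percentage points was within this spread (exact two-sided permutation test, p = 0.689, n = 9 and 9). D2_SS 9 stood alone at 5.37%, with the other D2_SS libraries at 34.5% or more. Mitochondrial counts made up 1.77% of D2_SS 4 and at most 0.287% of any other of the 19 libraries.

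In CPM the receptor genes went with the D2 label. Drd2 stood at a lowest, median and highest level of 398, 785 and 2104 CPM in D2_CC and 265, 677 and 2177 CPM in D2_SS. Drd1, the D1 receptor, stood at 11.6, 15.2 and 65.5 CPM and at 13.7, 36.1 and 45.8 CPM. CPM make no allowance for gene span, which is 67551 bases for Drd2 and 4523 for Drd1. Per kilobase of gene span, Drd2 had medians of 11.6 and 10.0 FPKM and Drd1 of 3.36 and 7.99. D2_SS 4 had the lowest Drd2 and the highest Drd1 of D2_SS, 3.93 and 10.1 FPKM, so Drd1 was the higher there per kilobase. Drd1 was also the higher per kilobase in D2_SS 5, at 43.7 CPM beside 581 CPM of Drd2. The medians of Aqp4 (astrocytes), Mbp (oligodendrocytes), Slc17a7 (cortical glutamatergic neurons) and Chat (cholinergic interneurons, which also use Drd2) were all below 1 FPKM. The ranges of the groups overlapped for both receptors.

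**Figure D1:**
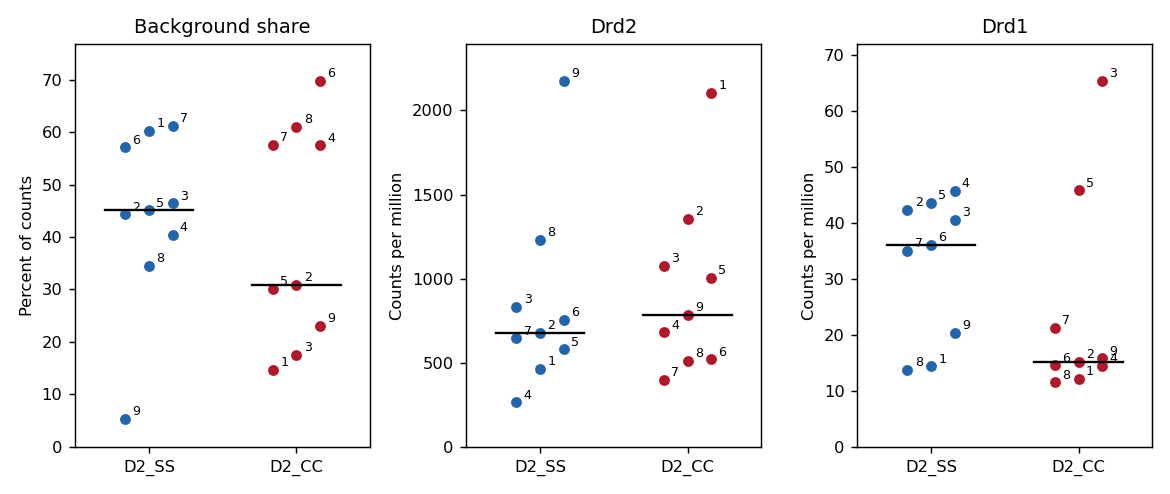
Background share (percent of counts), Drd2 and Drd1 (CPM) in each D2_SS and deeper D2_CC library, with the replicate number beside each point and the group median as a bar; D2_CC 10 (19825 counts) is left out. Background runs from 5.37% to 61.2% in D2_SS and from 14.7% to 69.8% in D2_CC. Drd2 exceeds Drd1 in CPM in every library drawn, with no allowance for the longer span of Drd2.

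No gene passed the test between cocaine re-exposure and saline throughout. With edgeR, 0 of 36090 genes (0%) had an adjusted p under 0.05, and DESeq2 and limma voom without sample weights also gave 0. At an unadjusted p under 0.05, which makes no allowance for the number of genes, there were 380 genes (1.05%), 79 higher (0.219%) and 301 lower (0.834%). This split rested on which libraries were fitted: without libraries failing the quality rule (2 D2_CC and 7 of the other D2 groups) 636 genes were higher and 248 lower, with only the D2_CC and D2_SS libraries 481 and 500. It was 44 higher and 73 lower without D2_SS 4. Of the 301, 63 belonged to 3 lists: 35 ribosomal protein genes, 18 genes of the respiratory chain and 10 of the mitochondrial genome. None of the 79 belonged to these lists. The same test was run on simulated counts over 33785 genes, with changes set only in genes of average log2 CPM of 1 or more. It recovered 86% of 100 genes changed 4-fold and 12% of 100 genes changed 2-fold, so in such counts a change near 2-fold was mostly missed. Each library was drawn independently around 1 mean per gene. Background shared across genes was not simulated, so these rates need not hold for the real libraries.

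The genes for cytoplasmic ribosomal proteins, the building blocks of translation, were low in most D2_CC libraries. Their summed level was 552, 703, 2672, 704, 1373, 539, 756, 707 and 1612 CPM in D2_CC 1 to 9. In D2_SS 1 to 9 it was 1052, 1701, 2159, 3853, 2736, 1987, 1739, 704 and 1114 CPM. Of the 9 D2_CC libraries, 8 lay under the D2_SS median and 3 under its lowest library, while D2_CC 3 was among the high ones. Of 87 ribosomal protein genes tested, 84 had a log2 change below 0, with a median of -0.77 beside -0.01 over all genes, and 35 had an unadjusted p under 0.05, all lower, where 0.834% of all genes were. No member passed adjustment. Without D2_SS 4 the median of the ribosomal protein genes was -0.57, with 8 such genes (0.2% of all genes were lower there). Without libraries failing the quality rule it was -0.82, with 31 such genes (248 of all 38669 genes were lower there).

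Rpl35, a protein of the large subunit, had the third smallest unadjusted p of the lower genes that could be named. It stood at 1.61, 2.95 and 9.59 CPM in D2_CC (lowest, median, highest) and 3.04, 8.99 and 20.1 in D2_SS. Of the 9 D2_CC libraries 5 lay below every D2_SS library. Its log2 change was -1.26 ± 0.40 (SE, unadjusted p = 0.003) and did not pass. Rps29, a small-subunit protein, was at a median of 4.09 against 15.2 CPM, with 7 of 9 D2_CC libraries below the D2_SS range (log2 -1.29 ± 0.45, adjusted p = 1). Rps25 and Rps27 had changes of -1.12 ± 0.39 and -1.20 ± 0.43. Ribosomal protein genes have many near-identical processed copies in the genome, and how reads shared with them were counted is not given in the sources used here.

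Rpl35 is shown because its start site carries the feature that marks ribosomal protein mRNAs as a class, a C followed by a run of pyrimidines (the 5′ terminal oligopyrimidine tract, through which mTOR controls their translation). The line gives 16 bases before and 14 bases from the RefSeq start site onward (GRCm38.p6, chr2:39005118-39005147, minus strand), with the pyrimidine run in capitals.
Rpl35: tcggccccgccctttcCTCTTTCTCTCgaa
A C with 4 further pyrimidines at the annotated start stood in 13 of 64 ribosomal protein promoters (20.3%) and in 2.49% of the 27025 promoters of all genes. It is a feature of translation control in cytoplasm, and nothing measured here in nuclei bears on its use.

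Nuclear genes of the respiratory chain, which build the complexes of oxidative phosphorylation with the mitochondrial genome's own genes, lay in the same libraries. Their summed level had a median of 1216 CPM in D2_CC (range 1142 to 2827) and 2085 in D2_SS (1323 to 3183), and 5 of 9 D2_CC libraries were below every D2_SS library. Of 83 respiratory chain genes tested, 79 had a change below 0 (median -0.52), and 18 were lower at an unadjusted p under 0.05, where 0.834% of all genes were. Cox7b, a subunit of cytochrome c oxidase, stood at a median of 10.9 against 27.1 CPM (log2 -1.01 ± 0.38). Ndufc2, a complex I subunit, stood at 12.1 against 22.7 CPM with 7 of 9 D2_CC libraries below the D2_SS range (-0.86 ± 0.34). Timm8b, a chaperone of mitochondrial protein import, stood at 3.18 against 11.2 CPM (-1.35 ± 0.43). None passed adjustment, and without D2_SS 4 the respiratory chain genes had a median of -0.39, with 1 gene at an unadjusted p under 0.05. Without libraries failing the quality rule the median was -0.41, with 6 such genes of 85 (248 of all 38669 genes were lower there).

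The mitochondrial genome's transcripts differed most in size and rested most on 1 library. Their summed level was 23.3, 26.8, 149, 102, 108, 91.4, 886, 153 and 249 CPM in D2_CC 1 to 9. In D2_SS 1 to 9 it was 198, 229, 520, 3620, 815, 665, 650, 41.1 and 39.2 CPM. D2_SS 4 was the highest and D2_CC 7 the next, and D2_SS 8 and 9 fell among the lowest D2_CC libraries. All 11 mitochondrial genome genes tested had a change below 0 (median -1.88), and 10 had an unadjusted p under 0.05, where 0.834% of all genes were lower at that p. mt-Co1, a catalytic subunit of cytochrome c oxidase, gave -2.06 ± 0.73 with all libraries and -0.96 without D2_SS 4 (unadjusted p = 0.153). Without that library the mitochondrial genome genes had a median of -0.96 and 0 of 11 stood at an unadjusted p under 0.05. These transcripts are made in mitochondria, so in sorted nuclei they come from outside the nucleus.

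**Figure D2:**
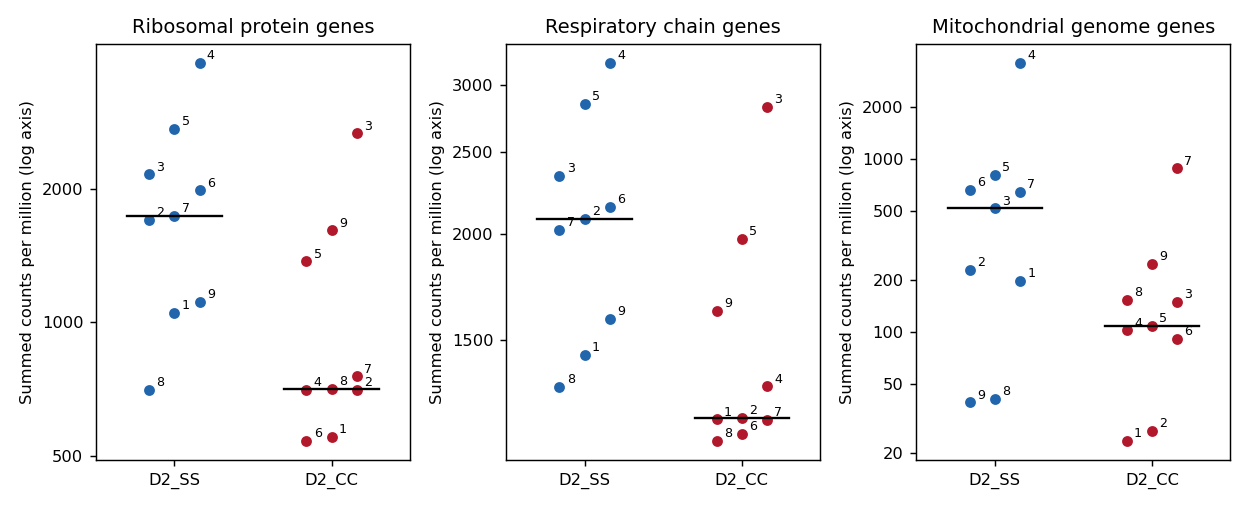
Summed CPM (log axis) of the ribosomal protein, respiratory chain and mitochondrial genome genes in each D2_SS and deeper D2_CC library, with replicate numbers and group medians as bars. Of the 9 D2_CC libraries, 8 lie under the D2_SS median in each panel, the ranges overlap, and D2_SS 4 is the highest library in all 3.

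Glial markers were high in the 2 libraries with the most mitochondrial transcripts. They were not high in D2_SS 5, the next at 815 CPM, where the astrocyte and oligodendrocyte sums were 249 and 229 CPM. D2_SS 4 and D2_CC 7 had the highest summed astrocyte markers (996 and 681 CPM, with 87.1 to 315 in every other deeper library) and oligodendrocyte markers (1189 and 538 CPM, with 102 to 303 in the others). None of the 8 astrocyte or 7 oligodendrocyte markers was at 0 over these libraries, and none was called. In bulk nuclei, fewer nuclei of a type and less RNA per nucleus cannot be told apart, and the part of glial nuclei or cytoplasmic RNA in the ribosomal and mitochondrial values was not tested. The ribosomal protein sum was also highest in D2_SS 4 (3853 CPM), and was 756 CPM in D2_CC 7 and 2672 CPM in D2_CC 3. With background share as a covariate the ribosomal protein genes had a median of -1.06 and 74 of 87 were lower at an unadjusted p under 0.05 (4.52% of all genes were), still with none past adjustment.

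The lower values went with short genes. Among protein-coding genes of an average log2 CPM of 1 or more, the 1330 spanning up to 5 kb had a median log2 change of -0.28 (quartiles -0.59 and -0.01), and 127 of them were lower at an unadjusted p under 0.05, with 2 higher. The 2892 genes of 5 to 10 kb had a median of -0.05, and medians ran from -0.04 to 0.03 in the longer classes. Without D2_SS 4 the shortest class had a median of -0.21. Without libraries failing the quality rule it was -0.21 as well, while the 1005 genes over 200 kb had 0.14. Many ribosomal protein genes, Tmsb4x and the metallothionein genes are short, so a difference of the pathway and a difference of short genes in general cannot be told apart here.

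**Figure D3:**
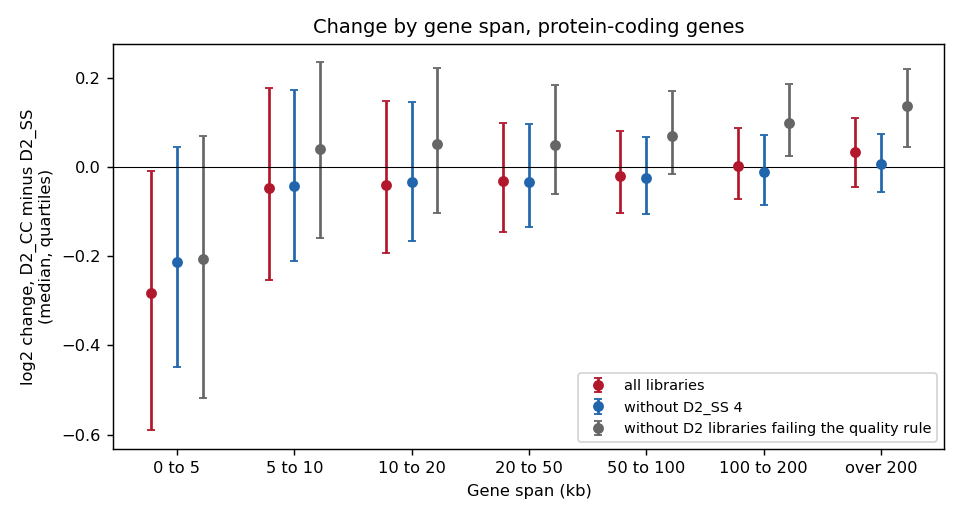
Median log2 change (D2_CC minus D2_SS) of protein-coding genes by gene span in kb, with quartiles as bars, for the fit of all libraries, the fit without D2_SS 4 and the fit without D2 libraries failing the quality rule. Genes up to 5 kb have medians of -0.28, -0.21 and -0.21, and all other classes lie between -0.05 and 0.14.

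Genes outside these 3 lists also had lower values in D2_CC. Tmsb4x (thymosin beta 4), which binds actin monomers, stood at 4.51, 13.1 and 43.2 CPM in D2_CC and 7.73, 41.8 and 108 CPM in D2_SS, with 0 of 9 D2_CC libraries above the D2_SS mean (log2 -1.40 ± 0.42). The actin regulators Cfl1 (cofilin) and Pfn1 (profilin) gave -0.99 ± 0.43 and -0.96 ± 0.43, and of the 26 actin cytoskeleton genes these, together with Cfl2, were the 3 with an unadjusted p under 0.05, all lower (0.834% of all genes were). Mt1, a metallothionein that binds zinc and responds to glucocorticoids, stood at a median of 2.67 against 8.16 CPM (-1.54 ± 0.49), and Mt2 gave -1.05 ± 0.45. Hsbp1, which binds heat shock factor 1, stood at 10.2 against 29.6 CPM (-1.09 ± 0.36). Vamp2, the synaptic vesicle SNARE, stood at 44.4 against 87.8 CPM (-0.96 ± 0.47). Of the 8 interneuron markers 5 had a change above 0 (median 0.07), among them Th, the dopamine synthesis enzyme, at 0.49 ± 0.40. The neuropeptide Sst, at -1.001 ± 0.44, was the 1 interneuron marker with an unadjusted p under 0.05, and the neuropeptide Npy gave -0.85 ± 0.42. The log2 change of largest size among the lower genes, Ttr at -2.79 ± 0.82, came from D2_SS 3, where this choroid plexus gene stood at 188 CPM beside 0.735 to 5.63 CPM in the other D2_SS libraries, and without it the change was -0.17. None of these genes passed adjustment.

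Some immediate early genes had higher values in D2_CC without passing the test. Of 26 rapid immediate early genes tested, 17 had a log2 change above 0, with a median of 0.15 beside -0.01 over all genes, and 0 had an unadjusted p under 0.05. Without D2_CC 3 the median was -0.01, with 13 of 26 above 0. Without libraries failing the quality rule it was 0.30, with 24 of 27 above 0 and 3 higher at an unadjusted p under 0.05. Over all genes of that fit the median was 0.07, and 636 of 38669 were higher at that p. Nr4a3, an orphan nuclear receptor induced by cyclic AMP and calcium (chr4:48045153-48086447 in GENCODE M21, mm10), stood at 78.0, 61.0, 76.8, 50.1, 63.0, 45.8, 48.6, 42.1 and 54.4 CPM in D2_CC 1 to 9. In D2_SS 1 to 9 it stood at 36.6, 42.5, 35.7, 32.8, 40.5, 32.3, 36.2, 48.9 and 63.4 CPM. All 9 D2_CC libraries lay above the D2_SS mean of 41.0, and 2 lay above D2_SS 9, the highest. The log2 change was 0.46 ± 0.27 (unadjusted p = 0.095, adjusted p = 1). Without D2_SS 9, the library of 5.37% background, it was 0.74 (unadjusted p = 0.006), the highest of the leave-one-out fits. The lowest of these was 0.32, and without D2_CC 3 it was 0.39 (unadjusted p = 0.165). Nr4a3 was higher in libraries of low background in both groups. Within 57.1% background or more, a range chosen after seeing the data, it was 42.1 to 50.1 CPM in 4 D2_CC libraries and 32.3 to 36.6 in 3 D2_SS libraries. Because the range was picked from these same values, this is not a test of Nr4a3.

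The truncated product of Fosb, deltaFosB, builds up in the accumbens over repeated cocaine. Fosb RNA stood at 7.58, 9.69, 15.1, 8.22, 10.6, 6.29, 6.81, 7.86 and 3.96 CPM in D2_CC 1 to 9. In D2_SS 1 to 9 it stood at 5.86, 6.57, 6.01, 3.56, 7.20, 5.73, 5.09, 6.71 and 3.68 CPM. Of the 9 D2_CC libraries 6 exceeded every D2_SS library, and D2_CC 9, the shallowest of them, did not exceed the D2_SS mean. The log2 change was 0.63 ± 0.39 (unadjusted p = 0.109, adjusted p = 1), and without libraries failing the quality rule 0.81 (unadjusted p = 0.0041, adjusted p = 1). Without D2_CC 3 it was 0.46 (unadjusted p = 0.244). Fosl2, a Fos family member named after its values were seen, stood at medians of 27.9 and 22.5 CPM (0.36 ± 0.27). Csrnp1, a nuclear protein induced by growth signals, stood at 2.80 to 7.43 CPM in D2_CC with 9 of 9 libraries above the D2_SS mean (0.70 ± 0.38), and Dusp2, a phosphatase that switches off MAP kinases, gave 0.74 ± 0.36 (unadjusted p = 0.048, adjusted p = 1). Egr2 gave 0.40 ± 0.37.

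The early genes most used as activity markers had no such difference in their levels. Fos stood at 3.18, 5.18 and 12.6 CPM in D2_CC and 3.001, 5.70 and 9.05 CPM in D2_SS (log2 0.15 ± 0.42). Egr1 stood at medians of 32.8 and 43.3 CPM (-0.03 ± 0.44) and Arc, which acts at synapses, at 9.91 and 17.4 CPM (0.01 ± 0.41). Nr4a1, the close relative of Nr4a3, stood at 31.5 and 31.5 CPM (-0.06 ± 0.37). Npas4 gave -0.24 ± 0.34, Junb -0.10 ± 0.47 and Egr3 -0.02 ± 0.38. A change near 2-fold could have been missed by the adjusted test, which recovered 12% of genes changed 2-fold in the simulated counts. Among the 9 D2_CC libraries, D2_CC 3 and D2_CC 5 were the 2 highest for Fos, Fosb, Fosl2, Egr1 and Arc, with Egr1 at 121 and 85.4 CPM and 14.2 to 37.5 CPM in the other 7. D2_CC 3 was also the highest of them for Drd1 (65.5 CPM), Tac1 (85.0 CPM) and Adora2a (210 CPM).

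**Figure D4:**
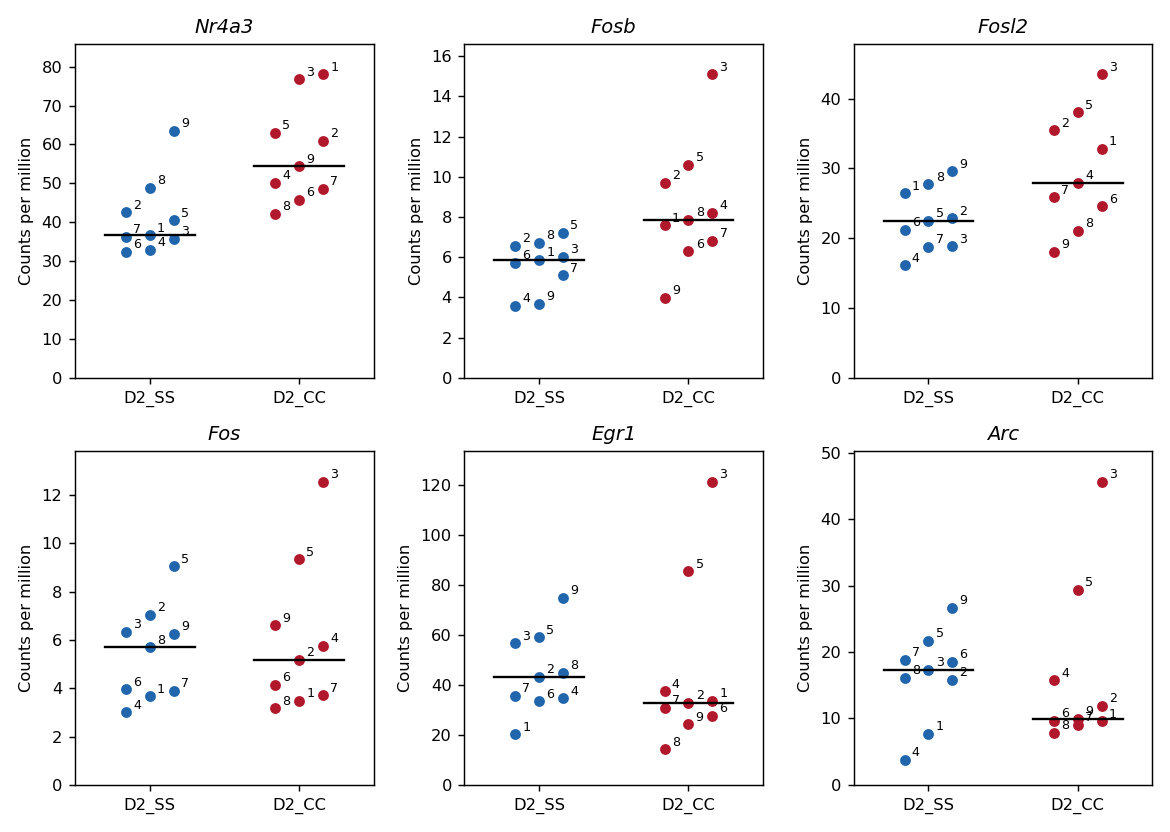
Levels (CPM) of 6 immediate early genes in each D2_SS and deeper D2_CC library, with replicate numbers and group medians as bars. Medians are higher in D2_CC for Nr4a3, Fosb and Fosl2 and lower for Fos, Egr1 and Arc, and D2_CC 3 and 5 are the highest D2_CC libraries in all panels but Nr4a3; no gene drawn passed adjustment in the edgeR test.

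The way libraries were weighted decided how many genes passed. With limma voom and sample quality weights, 8423 of 36090 genes passed (23.3%), 3301 higher (9.15%) and 5122 lower (14.2%). This fit gave 4 D2_CC libraries (4, 6, 7 and 8), all with 57.5% to 69.8% background, 88.1% of the weight of their group and each of the other 6 a weight of 0.239 to 0.717. Of the 26 rapid immediate early genes it called 9 higher and 6 lower. Nr4a3 at 0.38 (adjusted p = 0.010), Fosb at 0.32 (0.038) and Fosl2 at 0.30 (0.048) were among the higher, and Junb at -0.92 (0.00054) and Npas4 at -0.49 (0.037) among the lower. Of the 7 D2 neuron markers it called 4 lower, Adora2a at -1.13 and Penk at -1.22 among them. The weighted mean background was then 56.4% in D2_CC and 50.3% in D2_SS. When background share was added to the same fit, an alternative chosen after seeing the data, 3464 genes passed (9.6%), 443 higher (1.23%) and 3021 lower (8.37%). Among these the ribosomal protein genes gave 82 of 87 lower and the respiratory chain genes 70 of 83 lower. Of the rapid immediate early genes, 3 passed in the fit with background share, all higher: Nr4a3 at 0.51 (adjusted p = 9.4e-05), Fosb at 0.46 (0.0036) and Fosl2 at 0.42 (0.0018). In that fit Adora2a and Penk passed as lower (-0.89 and -0.995), and Junb (-0.67, adjusted p = 0.063), Npas4 (-0.35, 0.201) and Drd2 (0.04) did not pass. With edgeR on libraries that passed the quality rule and background as a covariate, Nr4a3 gave 0.53 and Fosb 0.67 with adjusted p = 0.399 for both, and 0 genes passed.

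No gene that defines D2 neurons passed in edgeR, while several had lower medians in D2_CC. Medians were 89.1 CPM in D2_CC and 150 in D2_SS for Adora2a, 390 and 786 for Penk, and 21.4 and 38.6 for Gpr6. Of the 7 markers tested, 3 had a change above 0, with a median of -0.01 and none at an unadjusted p under 0.05. Drd2 gave -0.01 ± 0.47, Adora2a -0.43 ± 0.44, Penk -0.19 ± 0.47 and Gpr6, an orphan receptor of these cells, -0.30 ± 0.55. Penk ranged from 150 to 1587 CPM in D2_CC and from 320 to 1313 CPM in D2_SS. The 9 D1 neuron markers all had a change below 0, with a median of -0.11 and none at an unadjusted p under 0.05: Drd1 gave -0.31 ± 0.41 and Tac1, which encodes substance P, -0.50 ± 0.36. Ppp1r1b (DARPP-32), the protein phosphatase inhibitor through which dopamine and cyclic AMP act in both neuron types, gave -0.50 ± 0.38. Pde10a, the striatal cyclic nucleotide phosphodiesterase, had medians of 1114 and 984 CPM.

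By the median change of their genes, signalling and synaptic lists centred near 0. In the 36 dopamine and cAMP signalling genes the median was -0.08 and none had an unadjusted p under 0.05, with Drd4 the nearest among the higher ones (0.81 ± 0.43). The glutamate receptors had 18 of 25 above 0 (median 0.08), led by Grin3b at 0.72 ± 0.36, and the postsynaptic scaffolds 12 of 21 (0.08). Axon guidance and synaptic adhesion genes had 45 of 61 above 0 (median 0.07), with Ntn1, the guidance cue netrin 1, at 0.47 ± 0.19: it stood at 88.8, 118 and 169 CPM in D2_CC and 37.9, 98.7 and 138 CPM in D2_SS. The neurotrophins and Trk receptors had 8 of 8 above 0 (median 0.22), Bdnf at 0.05 ± 0.37. Of the 97 potassium channels tested, 64 were above 0 (median 0.10). The core clock genes had 7 of 19 above 0 (median -0.09), with Per1 at -0.14 ± 0.43, Per2 at 0.14 ± 0.31 and Dbp at -0.54 ± 0.42. Of the 17 glucocorticoid-responsive genes, Mt1 and Mt2 were the 2 at an unadjusted p under 0.05, and Fkbp5 (0.21 ± 0.30) and Sgk1 (-0.17 ± 0.34) were not. By summed CPM, 9 of 9 D2_CC libraries lay above the D2_SS median for axon guidance and adhesion genes. It was 8 of 9 for postsynaptic scaffolds, potassium channels, neurotrophins and core clock genes. For glutamate receptors it was 7 of 9 and for dopamine and cAMP signalling 5 of 9. The ranges of the groups overlapped for each of these sums. Many of these receptor, channel and adhesion genes are long, the class that lay slightly above the short genes.

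**Figure D5:**
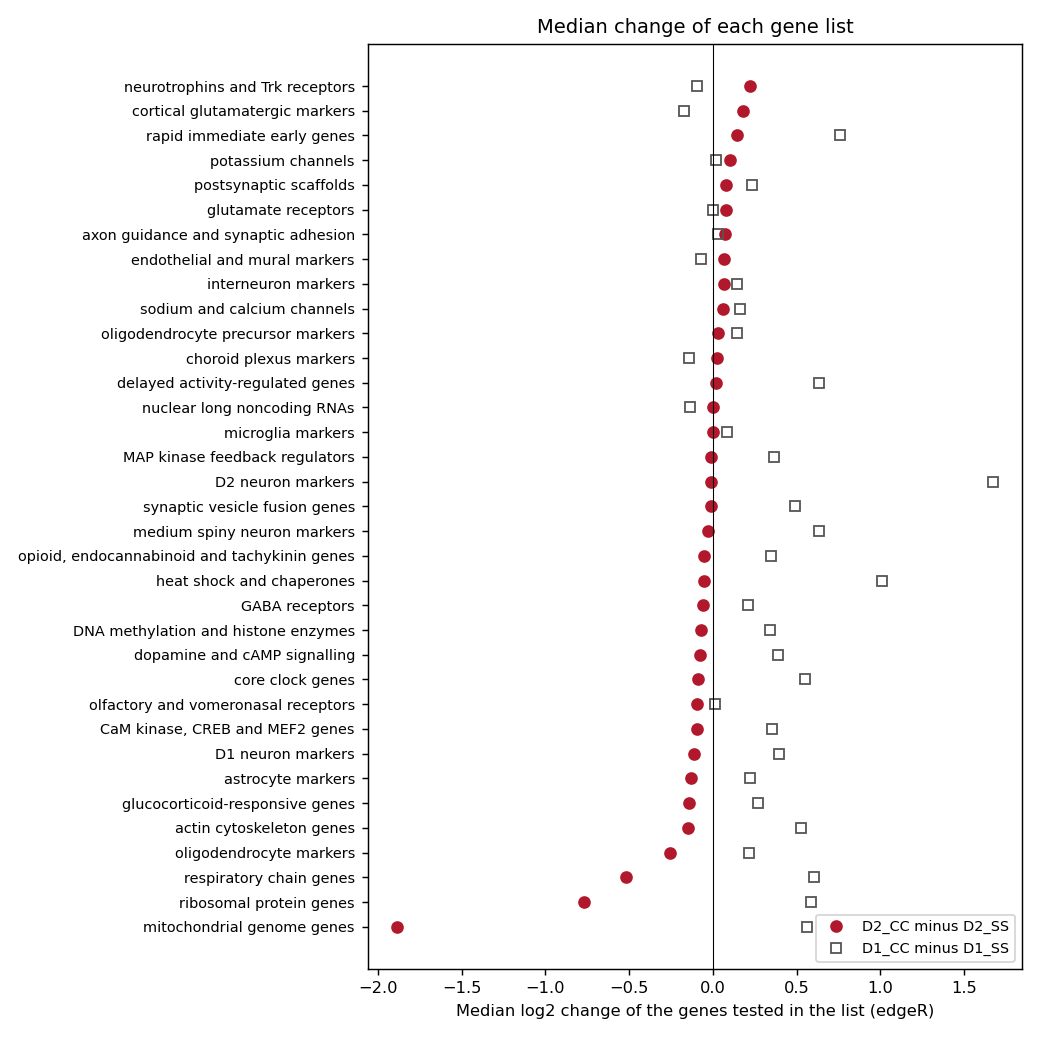
Median log2 change of the tested members of each of 35 gene lists for D2_CC minus D2_SS (filled circles) and D1_CC minus D1_SS (open squares), from edgeR fits. In D2 nuclei the mitochondrial genome (-1.88), ribosomal protein (-0.77) and respiratory chain (-0.52) genes lie lowest and the others between -0.26 and 0.22; the lists were chosen with earlier results of these data known.

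Among genes with the smallest p-values in the upward direction, several turned on 1 library. Soga3, first by p (3.44 ± 0.78), was at 60.3 to 126 CPM in the 9 deeper D2_CC libraries and 63.0 to 134 in D2_SS, but at 18714 CPM, or 371 of 19825 counts, in D2_CC 10. Without D2_CC 10 its log2 change was 7.5e-05. Ankrd44 (1.63 ± 0.54) likewise had 110 counts in D2_CC 10, and without that library it gave -0.017. Banf2 stood at 129 CPM in D2_CC 9 and 10.6 to 26.2 in the other deeper ones, and its change of 1.05 was 0.19 without D2_CC 9. The next genes were spread over more libraries: Osgin1, a gene of the oxidative stress response (0.71 ± 0.28), Map3k6, a MAP kinase kinase kinase (0.79 ± 0.33), Col11a2, a fibrillar collagen (0.80 ± 0.35), Cdh22, a cadherin (0.47 ± 0.21), Aqp5, a water channel (1.05 ± 0.47), and C4a, a complement gene with a near-identical neighbour (0.69 ± 0.32). For Osgin1, Col11a2, Aqp5 and C4a, 8 of 9 D2_CC libraries were above the D2_SS mean. None passed adjustment.

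Whether re-exposure differed from a first cocaine challenge, or from repeated cocaine followed by saline, was tested directly. Between D2_CC and D2_SC 0 of 36090 genes (0%) passed with edgeR, DESeq2 or limma, with 1192 (3.3%) at an unadjusted p under 0.05 in edgeR. Nr4a3 gave -0.16 and Fosb -0.16, with 0.46 and 0.63 against D2_SS for re-exposure beside 0.62 and 0.79 for the first challenge, 2 comparisons that share the D2_SS libraries. The ribosomal protein genes had medians of -0.77 for re-exposure and -0.88 for the first challenge against D2_SS, and 0.06 between the cocaine-challenged groups. D2_CS, with saline at the challenge, had a median of -0.37 against D2_SS, with 77 of 87 below 0. At an unadjusted p under 0.05, 1 was lower there (88 of all genes were). D2_CC minus D2_CS gave -0.41, with 80 of 87 below 0 and 9 lower at that p (2486 of all genes were).

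Between D2_CC and D2_CS 91 genes (0.252%) passed with edgeR, all lower in D2_CC, and the 5 with the smallest p each rested on 1 D2_CS library. Wfdc18 was at 656 CPM and Hoxc12 at 321 CPM in D2_CS 4, Nfkbia at 142 and Ly6a at 155 CPM in D2_CS 3, and Plcd3 at 13005 CPM in D2_CS 6, a library of 26297 counts. The next highest D2_CS library held 17.9 CPM or less of each of these genes. Without libraries failing the quality rule, 5 of which are D2_CS, 0 genes passed. Fos, Egr1 and Arc gave -0.97, -1.05 and -0.76 for D2_CC minus D2_CS, none passing. D2_CS, with saline at the challenge, also had early genes above D2_SS. The 26 rapid immediate early genes had a median of 0.52 for D2_CS minus D2_SS, with 21 above 0. At an unadjusted p under 0.05, 6 of them were higher (1723 of all 36090 genes were), none passing. For D2_CC minus D2_SS the median was 0.15, with 0 at that p. The D2_CS libraries failing the quality rule were in this fit.

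The same treatments in libraries labelled D1 have controls of their own, so the difference between lines was tested as an interaction. In CPM, Drd2 exceeded Drd1 in 4 of 10 D1_CC and 2 of 10 D1_SS libraries. CPM make no allowance for gene span, which is 67551 bases for Drd2 and 4523 for Drd1. A higher Drd2 than Drd1 in CPM therefore does not by itself go against the D1 label. Span is the same in every library, though, and Drd2 itself differed between D1_CC libraries. It was 363 to 718 CPM in D1_CC 4, 7, 9 and 10 and 38.8 to 60.3 CPM in the other D1_CC libraries. D1_CC 4 had Drd1 at 44.8 and Drd2 at 718 CPM and D1_CC 9 had 28.2 and 576 CPM, and both failed the quality rule, as did D1_CC 3 on correlation. D1_CC 7 (144 and 380 CPM) and D1_CC 10 (98.6 and 363 CPM) passed it, as did D1_SS 8 (17.5 and 58.9 CPM) and D1_SS 9 (22.3 and 57.6 CPM). All of these stayed in the fits without failing libraries given below. Drd2 in D1_SS 8 and 9 lay within the other D1_SS libraries (41.4 to 64.2 CPM), while Drd1 lay below them (76.9 CPM or more). With edgeR 0 of 39250 genes (0%) passed, as with DESeq2 and unweighted limma, with 2368 (6.03%) at an unadjusted p under 0.05, 324 with a D2 change above the D1 change (0.825%) and 2044 with one below it (5.21%). Without libraries failing the quality rule these were 656 above and 532 below, with 0 genes passing. D1_CC minus D1_SS itself gave 0 genes (0%), with 2578 (6.57%) at an unadjusted p under 0.05. Of 88 ribosomal protein genes in that fit, 84 had an interaction below 0 (median -1.38) and 48 were lower at an unadjusted p under 0.05, beside medians of -0.77 in D2 and 0.58 in the D1 label. Without the failing libraries the median was -1.22, with 6 lower at that p. The 85 respiratory chain genes had an interaction median of -1.18, 44 lower at that p, and without the failing libraries -0.96, with 4 lower. Of the 27 rapid immediate early genes 19 were below 0 (median -0.59) and 6 had an unadjusted p under 0.05, with medians of 0.15 in D2 and 0.76 in the D1 label. Without the failing libraries the interaction median was -0.29, with 0 at that p. Nr4a3 gave 0.46 in D2 and 1.01 in the D1 label (interaction -0.51), Fosb 0.63 and 1.51 (-0.84), and Egr1 -0.03 and 1.68 (-1.66), and without the failing libraries the interactions were -0.14, -0.39 and -1.13. The D2 neuron markers had a median of 1.67 for D1_CC minus D1_SS, with Drd2 at 2.22, and 1.20 and 1.56 without the failing libraries, none passing adjustment. The part of these libraries in the interaction was otherwise not tested.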

How the data were processed

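Nuclear RNA was measured in sorted accumbens nuclei with a low-input stranded total RNA kit, per the labels' protocols. The authors deposited whole-number counts, and FPKM beside them, over 55401 identifiers, and every one of the 75 columns carries the name of 1 labelled sample. The submitters' processing notes name the tools: per these, featureCounts, DESeq2 and mm10 were used; versions, aligner, annotation and strand setting are not given in the sources used here, so values of overlapping genes and of near-identical copies are uncertain. The deposited FPKM values equalled CPM per kilobase of gene span, introns included, for 54271 of 54271 comparable identifiers (GENCODE M21), and served only for lengths and the marker levels per kilobase. Symbols came from GENCODE M21 for 55141 identifiers.

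The test was edgeR's quasi-likelihood test on these counts (edgeR 4.0.16, R 4.3.3; TMM, filterByExpr, Benjamini-Hochberg adjustment, threshold 0.05), fitting all 38 D2 libraries over 36090 genes, or all 75 for the interaction with D1. Alternatives used DESeq2 1.42.0, limma 3.58.1, other scalings, filters, weights and library sets, a background covariate and a replicate block. SE values come from the log2 change and the F statistic. CPM are counts per 1000000 of a library's total. Background share is the share of counts that an even read density over gene spans, set by 1435 olfactory and vomeronasal receptor genes, would account for; only libraries over 1000000 counts entered its test. A library failed the quality rule if its total was less than its line's median divided by 3, if its gene number or median Spearman correlation was over 4 scaled median absolute deviations low, or if its Drd1 to Drd2 ratio was on the other line's side. The test was tried on simulated counts, where 2% of calls were false. These counts held no background shared across genes, so this rate need not hold for the real libraries.

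Genes that could be named were those of average log2 CPM of 1 or more with a conventional symbol, the 10 with the largest changes in each direction among passing genes or, with fewer than 20 passing, the 10 of smallest p in each direction; up to 4 per list by p; and 25 fixed genes. The text names a part of these. The comparison, its members and the 35 gene lists were chosen with earlier results of these data known. Gpr52 was not analysed here.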

Additional observations from a re-analysis of the deposited data

Results flagged for a closer look

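Of 144 sets of 9 or 10 libraries checked, 46 held 1 library far from the others by Dixon's test. Chance gives about 1 in 20, and the sets are not independent, since most of these values belong to 4 libraries.

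D2_SS 4 had 1.77% mitochondrial counts and stood alone for mt-Nd1 (385 CPM), mt-Cytb (709 CPM) and mt-Co1 (780 CPM). It also stood alone for summed astrocyte markers (996 CPM), oligodendrocyte markers (1189 CPM), Rps25 (50.3 CPM), Rps27 (21.6 CPM), Cox7b (82.2 CPM), Timm8b (33.6 CPM), Mt1 (35.3 CPM), Mt2 (4.88 CPM), Vamp2 (264 CPM) and Npy (27.4 CPM), and was low for the activity-induced factor Npas4 (4.31 CPM).

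D2_SS 9 had 5.37% background. It was the highest D2_SS library for Drd2 (2177 CPM), Pde10a (2606 CPM), Homer1 (538 CPM), Sgk1 (300.4 CPM), Per1 (84.6 CPM), Nr4a1 (69.9 CPM) and Soga3 (134 CPM), and the lowest for Ankrd44 (22.2 CPM) and Bdnf (2.94 CPM). With this library in the saline group, Drd2 in D2_SS spans a wider range than in the other 8. The D2 neuron markers Adora2a (151 CPM), Penk (551 CPM) and Gpr6 (23.9 CPM) lay within the range of those 8.

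D2_CC 3 stood alone among the D2_CC libraries for summed ribosomal protein genes (2672 CPM), respiratory chain genes (2827 CPM), Rps25 (22.8 CPM), Rps27 (10.6 CPM), Rps29 (16.8 CPM), Ndufc2 (26.7 CPM), Tmsb4x (43.2 CPM), Mt1 (11.3 CPM), Hsbp1 (32.8 CPM) and Tac1 (85.0 CPM). Its values lie within the D2_SS range for the ribosomal protein and respiratory chain genes. D2_CC 7 stood alone for 0.283% mitochondrial counts, mt-Nd1 (89.3 CPM), mt-Cytb (139 CPM), mt-Co1 (146 CPM), astrocyte markers (681 CPM) and oligodendrocyte markers (538 CPM).

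Single values made up the rest. D2_CC 10 stood at 18714 CPM for Soga3 and 5549 CPM for Ankrd44, D2_CC 9 at 129 CPM for Banf2, D2_CC 2 at 17.4 CPM for Map3k6, and D2_SS 3 at 188 CPM for Ttr.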

How the results depend on the processing

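D2_CC minus D2_SS gave 0 genes under the other alternatives run, leave-one-out fits included (lowest and highest 0), but 8423 with limma sample weights and 3464 with weights and background share. D2_CC minus D2_SC stayed at 0. D2_CC minus D2_CS, 91 genes, gave 145 with no filter, 38 with DESeq2, 6 with RLE scaling, 9 without D2_CC 9 and 10, and 0 in all 3 limma fits, with only the 2 groups, without libraries failing the quality rule, and without these and with background share. The interaction with D1 gave 19 genes with limma weights, 5904 with weights and background share, and 1 with no filter. DESeq2 moved the median of all genes to 0.12. Soga3 changed sign with limma weights (-0.27), with weights and background share (-0.11), without D2_CC 9 and 10 (-0.075) and without failing libraries and with background share (-0.044), and Ankrd44 with DESeq2 (-0.025) and with weights and background share (-0.0024). Leaving out 1 library at a time, Soga3 ran from 7.5e-05 to 3.67 and Ankrd44 from -0.017 to 1.79. Fos, Junb, Arc, Egr1, Egr3, Nr4a1, Homer1, Bdnf, Drd2, Pdyn, Per1, Sgk1 and Pde10a, all within 1 SE of 0, took either sign over the alternatives. Limits are the 19825 counts of D2_CC 10 and the spread of background share. The added alternatives (unweighted limma, weights or library sets with background share, without D2_CC 9 and 10) were chosen after seeing the data. Replicate numbers did not pair the libraries: over 9 pairs, deviations from the group means correlated at -0.59 to 0.58, and 1 library matched its own number best. The replicate block gave 0 genes for D2_CC minus D2_SS, 0 for D2_CC minus D2_CS and a background difference of -3.61 points (exact p = 0.648).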
